A study of Homo sapiens with 9 samples.

Results

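The genes described here encode the proteins that modify, fold, export, trim and crosslink collagen. They were taken by symbol from the table of gene counts as a list of 36 genes, of 61209 symbols in all. All 36 were found and all 36 passed the filter on low counts that left 16976 genes to test. The list holds 6 genes of the prolyl 3-hydroxylases and their complex, 4 prolyl 4-hydroxylases, 5 lysyl hydroxylases and collagen glycosyltransferases, 3 collagen chaperones, 2 ion transporters of the endoplasmic reticulum, 3 export factors, 8 propeptide proteases and enhancers, and 5 lysyl oxidases. PolyA RNA of GIST-T1 (T1) cells, an imatinib-sensitive line of gastrointestinal stromal tumor (GIST) with a deletion in exon 11 of KIT that the labels give as del560-79, was sequenced in 9 libraries. In 3 libraries (S4, S5 and S6) the cells had received siRNA against ESRRA, the gene of estrogen-related receptor alpha (siERRα). In another 3 (S16, S17 and S18) they had received a non-target control siRNA together with imatinib at 50 nM, which inhibits the KIT kinase (imatinib), and in the last 3 (S1, S2 and S3) the non-target control siRNA alone (siNC). All were harvested 48 h after transfection, all come from 1 cell line, and no group analysed here combined knockdown with imatinib.

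Collagen chains are made in the endoplasmic reticulum, where prolyl hydroxylases stabilize the triple helix, lysyl hydroxylases prepare the sites of sugar attachment and crosslinks, and chaperones hold the helix together until it is exported. Outside the cell, proteases cut off the propeptides at both ends of the procollagen, and lysyl oxidases convert lysines to the aldehydes that crosslink fibrils. Loss of several of these genes causes brittle bone disease or Ehlers-Danlos syndrome, and fibroblasts and tumors of mesenchymal origin are known for high levels of them.

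Library totals ran from 37527236 to 49363002 counts. ESRRA itself stood at 1.40, 0.757 and 1.34 CPM in siERRα libraries, 30.4, 32.0 and 35.6 CPM in imatinib libraries, and 40.7, 44.7 and 40.9 CPM in siNC libraries, where CPM is the count scaled to a normalized library total of 1000000. All 9 markers of GIST and of the interstitial cells of Cajal were detected, and summed to between 3845 and 4314 CPM over the 9 libraries, while 6 leukocyte markers summed to at most 1.08 CPM and 4 endothelial markers to at most 3.04 CPM. PTPRC and PECAM1, the defining genes of those cell types, were at 0 in some libraries and nowhere above 0.082 CPM. The fibroblast markers (6 genes), among them DCN and LUM, summed to 2415 to 2458 CPM in siERRα, 3054 to 3244 CPM in imatinib and 2504 to 2596 CPM in siNC, the 6 epithelial markers to 280 to 303 CPM in siERRα, 193 to 223 CPM in imatinib and 302 to 315 CPM in siNC, nearly all of it from KRT18 (the defining gene EPCAM reached 0.229 CPM), and 10 proliferation markers to 1910 to 2047 CPM in siERRα, 1938 to 1995 CPM in imatinib and 1867 to 1896 CPM in siNC. A sum can hide changes of single genes. Of the 10 proliferation markers, 3 were lower and 3 higher with imatinib against siNC (edgeR, adjusted p under 0.05). Their log2 fold changes ran from −0.98 to 0.53. In siERRα against siNC 0 were lower and 4 higher. Of all genes tested, 20.3% were lower and 21.4% higher with imatinib, and 12.6% and 11.4% in siERRα. Within the siERRα group S5 stood apart, with chi-square values per degree of freedom of 16.50 and 14.01 against S4 and S6, which differed from each other by 4.35. S16 stood apart in the imatinib group (14.66 and 11.05, against 7.96 between S17 and S18) and S2 in the siNC group (9.67 and 6.87, against 3.77 between S1 and S3). Mitochondrial genes took 0.943% to 1.03% of the counts in siERRα, 1.48% to 1.54% in imatinib and 0.846% to 0.989% in siNC. Whether the 3 libraries of a group represent separate cultures is not stated in the labels or the methods, and the p-values therefore describe the spread between libraries, which may be technical. The imatinib libraries carry the numbers S16 to S18, apart from S1 to S6, and whether all were prepared together is not stated. A difference in preparation could not be told apart from imatinib. In bulk RNA, fewer cells that use a gene and less of its RNA per cell cannot be told apart.

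Expression of the collagen enzymes in T1 cells that received the non-target siRNA alone covered a wide range. SERPINH1, the collagen chaperone HSP47, led with 847 ± 50.7 CPM per kb of canonical transcript in siNC (SD, n = 3), followed by P4HB, the shared subunit of the prolyl 4-hydroxylases, with 363 ± 20.1. PCOLCE2, PLOD2 and COLGALT1 came next at 156 ± 4.34, 153 ± 7.48 and 152 ± 6.90 CPM per kb, and their libraries overlapped. The lowest were LOX at 0.140 ± 0.00946, TLL1 at 0.0850 ± 0.0114 and ADAMTS2 at 0.0840 ± 0.0204 CPM per kb, and the last pair also overlapped. Of the 35 pairs of neighbours in this order, 14 had overlapping siNC libraries. The order depends on the length used. Divided by all exonic bases of the gene instead, P4HB had 79.5 CPM per kb and ranked 4, PLOD2 had 39.5 and ranked 9, and PPIB had 28.5 and ranked 10, in place of 2, 4 and 6. On the plain CPM scale, 16 genes were above 100 CPM in siNC, 12 lay between 10 and 100, 4 between 1 and 10, and 4 (P4HA3, LOX, TLL1 and ADAMTS2) were below 1 CPM. The values of these 4 rested on 9 to 67 counts a library and carry a large counting error.

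**Figure D1:**
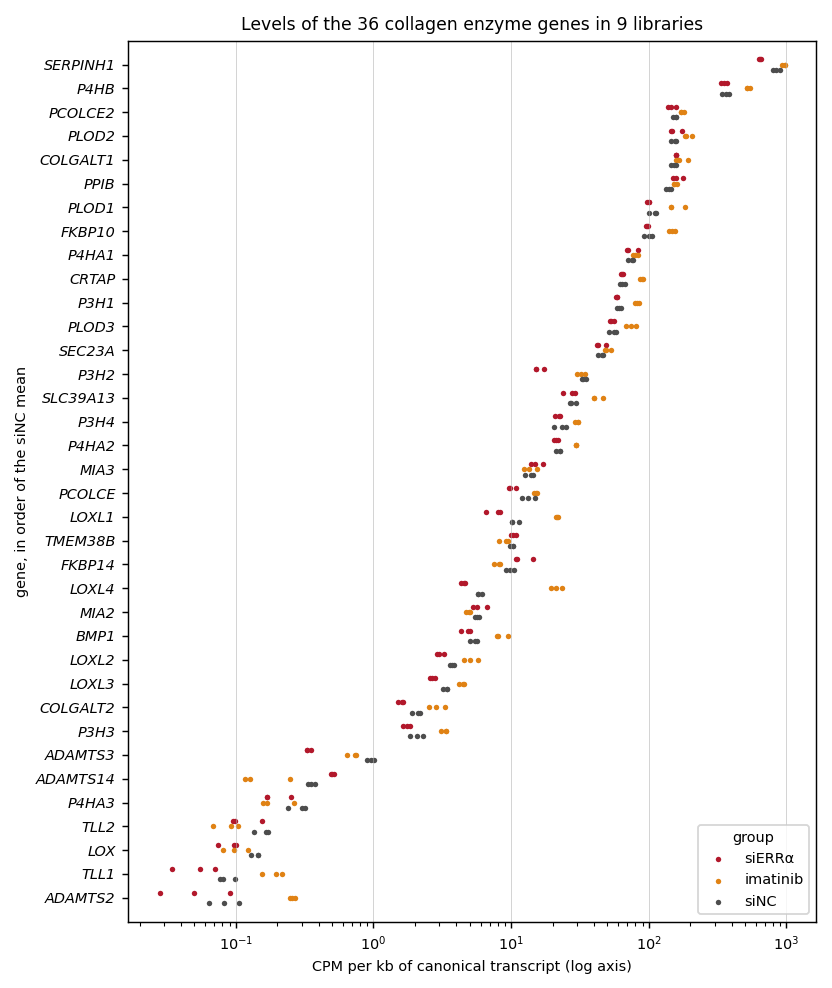
Levels of the 36 collagen enzyme genes in the siERRα, imatinib and siNC libraries, in CPM per kb of canonical transcript on a log axis, with 1 point per library and genes in the order of their siNC mean. SERPINH1 is at the top with 847 CPM per kb in siNC and ADAMTS2 at the bottom with 0.0840. The imatinib points of LOXL4 and ADAMTS2 lie to the right of the other groups, and the siERRα points of P3H2 and ADAMTS3 to the left.

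To ask which of these genes differed after siRNA against ESRRA, siERRα was compared with siNC. Of the 36 genes, 9 were lower and 2 were higher at an adjusted p under 0.05 by edgeR. Over all 16976 genes tested, 12.6% were lower and 11.4% higher. P3H2 and ADAMTS3 fell more than 2-fold, and both also passed an absolute log2 fold change of 0.5, as did 5.28% of all genes in that direction. None that rose did so, against 1.98% of all genes. The other 7 genes that fell (SERPINH1, COLGALT2, PCOLCE, LOXL1, LOXL2, LOXL3 and LOXL4) had log2 fold changes between −0.46 and −0.29, and PPIB and FKBP14 were the 2 that rose. The median log2 fold change was −0.078 over the 36 genes and 0.0085 over all genes tested. All 3 siERRα libraries lay below all siNC libraries for 13 of the 36 genes and above them for 3, against 19.3% and 19.3% of all genes. The 2 higher calls were both lost without S5 or without S3, and 1 was lost without S1 or S2, so that 0 to 3 genes were higher over the fits that left out 1 library.

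Imatinib moved more of the list, and mostly upward. Against siNC, 22 of the 36 genes were higher and 6 lower at an adjusted p under 0.05 by edgeR, where 21.4% of all genes tested were higher and 20.3% lower. LOXL4, ADAMTS2, TLL1 and LOXL1 rose more than 2-fold, and ADAMTS14 fell more than 2-fold. The median log2 fold change was 0.36 over the 36 genes and 0.0023 over all genes. With the fold threshold of 0.5 added, 10 rose and 2 fell, against 10.6% and 7.02% of all genes. All 3 imatinib libraries lay above all siNC libraries for 23 genes and below them for 7, against 26.2% and 25.8% of all genes. Leaving out S1 left 2 lower calls and leaving out S18 left 3, in place of 6.

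The direct comparison of siERRα with imatinib tests the difference between the effects of the 2 treatments, since both share the siNC libraries. Here 25 of the 36 genes were lower in siERRα and 4 higher (edgeR, adjusted p under 0.05), where 26.6% of all genes tested were lower and 25.6% higher. The median log2 fold change was −0.48 over the 36 genes and −0.0045 over all genes. The libraries of the 2 groups did not overlap for 28 of the genes, 24 of them lower in siERRα and 4 higher, against 28.6% and 28.3% of all genes. With the fold threshold of 0.5 added, 17 were lower and 2 higher in siERRα, against 15.7% and 10.6% of all genes.

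**Figure D2:**
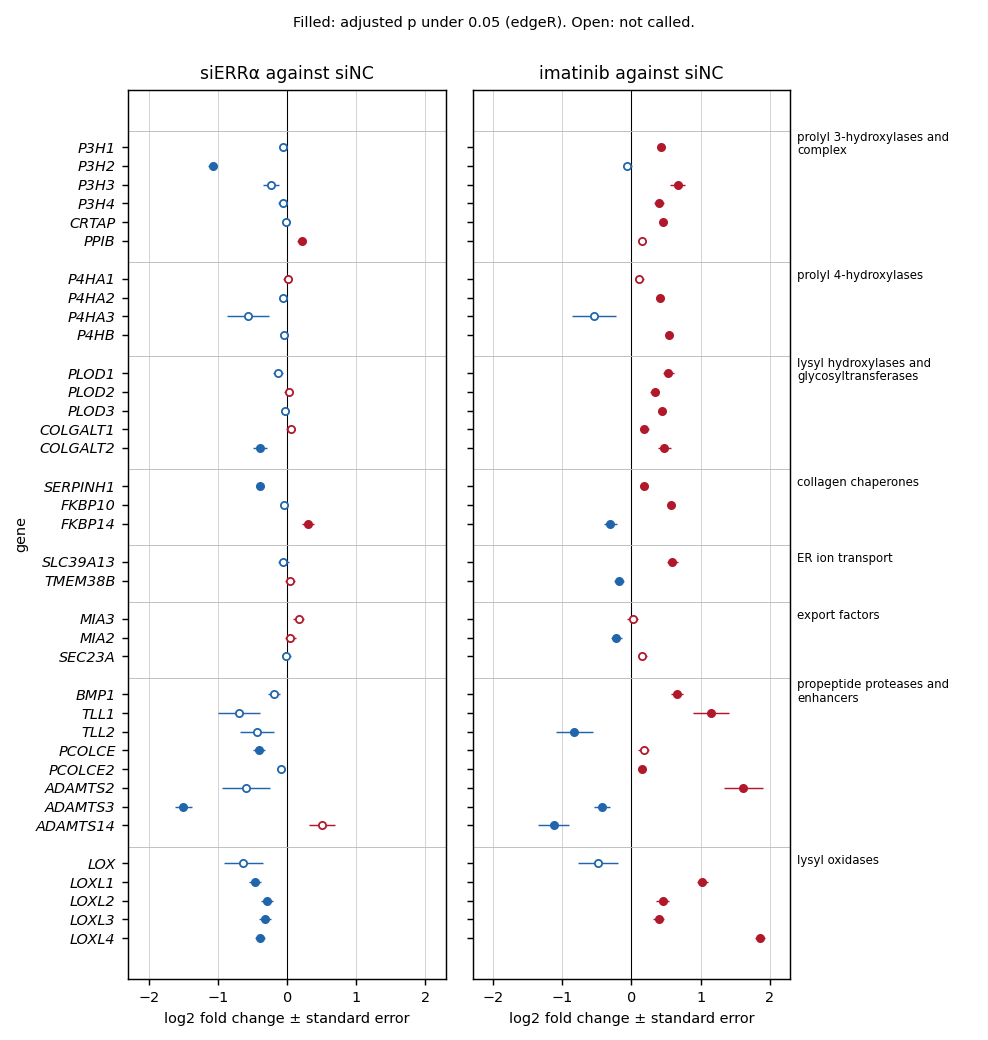
Log2 fold changes of the 36 genes with their SEs, in siERRα against siNC (left panel) and imatinib against siNC (right panel), grouped by role, with filled points for an adjusted p under 0.05 by edgeR and open points for genes that were not called. In the left panel 9 filled points lie left of 0 and 2 right of it, and in the right panel 22 lie right of 0 and 6 left. LOXL4 reaches −0.39 on the left and 1.86 on the right.

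The prolyl 3-hydroxylases add a hydroxyl group to single prolines of the collagen helix. In siERRα, P3H2 was the 1 gene of the 6 in this group that fell, where 12.6% of all genes tested fell. P3H2, an enzyme that acts mainly on basement membrane collagen IV, lies on chromosome 3 (GRCh38, 189956728 to 190122437, minus strand). It stood at 52.3, 60.7 and 53.0 CPM in siERRα libraries, 105, 111 and 120 CPM in imatinib libraries, and 121, 114 and 115 CPM in siNC libraries. Every siERRα library was far below every library of the other groups, while imatinib and siNC overlapped. Against siNC the log2 fold change was −1.08 in siERRα (standard error, SE, 0.0679, edgeR adjusted p = 1.73e-09) and −0.060 (edgeR adjusted p = 0.503) in imatinib against siNC. The difference between the 2 treatments was itself past the threshold, with −1.02 (adjusted p = 4.32e-10, edgeR). Its paralog P3H1, which forms a complex with CRTAP and PPIB (cyclophilin B), had 151 ± 0.959 CPM in siERRα, 212 ± 7.33 in imatinib and 157 ± 5.54 in siNC (SD, n = 3 each). The ratio of P3H2 to P3H1 was thus 0.366 ± 0.0286 in siERRα, 0.531 ± 0.0443 in imatinib and 0.746 ± 0.05 in siNC.

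CRTAP, the helper protein of P3H1, stood at 421 ± 9.15 CPM in siERRα, 583 ± 16.7 in imatinib and 424 ± 20.5 in siNC (SD, n = 3 each). P3H1 and CRTAP rose with imatinib by 0.43 and 0.46 on the log2 scale (adjusted p = 2.32e-06 and 1.10e-06, edgeR), whereas in siERRα against siNC they had −0.054 and −0.012 and were not called. P3H3 and P3H4, which in mice form a complex with the lysyl hydroxylase PLOD1, also rose with imatinib, by 0.67 and 0.40. PPIB, the prolyl isomerase of the complex, departed from its partners. It stood at 133, 158 and 141 CPM in siERRα libraries, 136, 137 and 142 CPM in imatinib libraries, and 124, 130 and 120 CPM in siNC libraries, so that both treated groups lay above siNC. Its log2 fold change in siERRα against siNC was 0.21 (SE 0.0632, adjusted p = 0.0204, edgeR), and without S5 it was 0.14 (adjusted p = 0.0876, edgeR). This call was also lost without S1 or S3 (adjusted p = 0.0625 and 0.124, edgeR). With imatinib it was 0.15 and not called (adjusted p = 0.0637, edgeR). It was called without S5 or S2, with the 6 libraries compared alone and where each library had to hold 10 counts or more (adjusted p = 0.0194, 0.0443, 0.0298 and 0.0484, edgeR). PPIB shares 26.6% of its exonic bases with SNX22 on the opposite strand. The strand setting of the counting is not given in the sources used here, so the level of PPIB is uncertain by that part, in either direction.

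The letters around 2 short motifs are shown because the genes that fell most in siERRα hold one of them and because the other is the half-site that ERRα is known to bind. The first is the heptamer ATGTTCT in the 3' UTR, searched on the transcript strand of each gene's canonical GENCODE transcript. It was chosen from earlier results of these data, in which genes holding it were often lower after knockdown. The sequence of the siRNA is not given in the sources used here. Capitals mark the heptamer, and each stretch has 30 bases of GRCh38, written 5′ to 3′ on the strand of the gene.
P3H2, exon 15, chr3:189957881-189957910, minus strand: aatgagaaagaATGTTCTatcaaatattta
ADAMTS3, exon 22, chr4:72282563-72282592, minus strand: tacatttctggATGTTCTaggtgcctgtcg
COLGALT2, exon 12, chr1:183937310-183937339, minus strand: ccctcaagtttATGTTCTcatgccctcaat
FKBP14, exon 4, chr7:30014636-30014665, minus strand: atttttatacaATGTTCTttcttgctttgt
TLL1, exon 21, chr4:166103040-166103069, plus strand: ggactgtcatcATGTTCTcgttttgtagtt

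Of the 36 genes, 8 (22.2%) held the heptamer, namely these 5 with PCOLCE2, TMEM38B and TLL2, which has 2 copies. Of the 12745 genes tested with a 3' UTR of at least 50 bases, 19.0% held it. In siERRα against siNC, 3 of these 8 fell (P3H2, ADAMTS3 and COLGALT2), FKBP14 rose and 4 were not called. Among all 2418 genes tested that held the heptamer, 30.3% were lower and 9.06% higher, with a median log2 fold change of −0.097, and among the 10327 that did not, 11.96% were lower and 15.1% higher, with a median of 0.029. The heptamer was chosen from these same data, so this contrast is a description and gives no independent support. Lengths of the 3' UTRs were not matched between the 2 sets. The other genes that fell, SERPINH1, PCOLCE, LOXL1, LOXL2, LOXL3 and LOXL4, did not hold it. What part the heptamer has in any of these values was not tested.

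The second motif is AAGGTCA, searched on both strands of the 300 bases around each gene start in RefSeq (250 before and 50 after, GRCh38.p14). The 28 genes of the list with a promoter there had 34 promoters, of which 2.94% held it, against 2.68% of the 16427 promoters of genes tested. The 1 gene with it was PCOLCE, one of the 9 genes that fell. The capitals mark the motif, which begins 127 bases before the start on the gene's strand.
PCOLCE promoter, chr7:100602225-100602254, plus strand: ctccccctcctAAGGTCAacatttatgtgt

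A match to these letters is a description and not a binding site, and promoters without them may hold other sites.

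Prolyl 4-hydroxylases make the 4-hydroxyproline that keeps the triple helix stable at body temperature. None of the 4 genes was called in siERRα against siNC by edgeR, DESeq2 or limma-voom, and none had an unadjusted p under 0.05 by edgeR. Of all genes tested, 12.6% were called lower and 11.4% higher by edgeR. P4HB, which is protein disulfide isomerase, stood at 819, 897 and 851 CPM in siERRα libraries, 1334, 1270 and 1256 CPM in imatinib libraries, and 834, 931 and 892 CPM in siNC libraries. Only the imatinib libraries stood apart, with a log2 fold change of 0.54 (SE 0.0559, adjusted p = 3.18e-07, edgeR) against siNC. The catalytic subunits differed among themselves. P4HA2 stood at 96.7 ± 2.76 CPM in siERRα, 134 ± 0.423 in imatinib and 101 ± 3.27 in siNC (SD, n = 3 each), and rose with imatinib by 0.42 (adjusted p = 4.66e-06, edgeR). P4HA1, the more abundant subunit, stood at 204 ± 21.6 CPM in siERRα, 220 ± 9.86 in imatinib and 204 ± 8.60 in siNC and was called in no comparison. Without S5 it was lower in siERRα than in imatinib, by −0.20 (adjusted p = 0.0062, edgeR). The ratio of P4HA2 to P4HA1 was 0.476 ± 0.0461 in siERRα, 0.612 ± 0.0265 in imatinib and 0.496 ± 0.0291 in siNC. P4HA3 was near the floor in all groups, with 13 to 36 counts a library.

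Among the enzymes that modify lysine, all 5 rose with imatinib and 1 fell in siERRα. By edgeR, 21.4% of all genes tested were higher with imatinib and 12.6% lower in siERRα. PLOD1, which hydroxylates lysines in the helix, stood at 297, 297 and 288 CPM in siERRα libraries, 541, 431 and 430 CPM in imatinib libraries, and 299, 331 and 337 CPM in siNC libraries. The 3 groups did not overlap, and S16 was highest. Its log2 fold change was 0.53 (SE 0.0748, adjusted p = 1.19e-05, edgeR) with imatinib and −0.13 (adjusted p = 0.227, edgeR) in siERRα. PLOD2, which acts on the telopeptides, rose with imatinib by 0.33 and PLOD3, which also attaches glucose, by 0.44. COLGALT2 and COLGALT1 attach galactose to hydroxylysine. COLGALT2 had 7.80, 8.29 and 8.42 CPM in siERRα libraries, 16.996, 13.1 and 14.6 CPM in imatinib libraries, and 10.8, 9.93 and 11.3 CPM in siNC libraries. These did not overlap either, with siERRα lowest and imatinib highest. It fell in siERRα by 0.39 on the log2 scale (adjusted p = 0.00711, edgeR) and rose with imatinib by 0.48 (adjusted p = 0.00059, edgeR). COLGALT1, whose mean was 628 ± 66.8 CPM in imatinib and 553 ± 25.2 in siNC (SD, n = 3 each), rose by 0.18 with overlapping libraries. Without S16 this value was 0.094 (adjusted p = 0.207, edgeR), and the call was also lost without S1 or S3 (adjusted p = 0.137 and 0.0649, edgeR).

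Of the chaperones, SERPINH1 fell and FKBP14 rose in siERRα, and SERPINH1 and FKBP10 rose and FKBP14 fell with imatinib. SERPINH1, on chromosome 11 (75562056 to 75572783, plus strand), encodes a chaperone that binds the folded procollagen helix and leaves it in the Golgi. Its values were 1344, 1294 and 1325 CPM in siERRα libraries, 1997, 1903 and 2012 CPM in imatinib libraries, and 1643, 1851 and 1734 CPM in siNC libraries. The groups did not overlap. The log2 fold change was −0.40 (SE 0.0539, adjusted p = 2.11e-05, edgeR) in siERRα and 0.18 (adjusted p = 0.0124, edgeR) with imatinib. The imatinib call was lost without S1, S3 or S18 (adjusted p = 0.0971, 0.0523 and 0.0552, edgeR). FKBP10 (FKBP65), a prolyl isomerase that works with PLOD2, stood at 249 ± 4.34 CPM in siERRα, 382 ± 18.6 in imatinib and 257 ± 17.9 in siNC (SD, n = 3 each), a rise of 0.57 with imatinib (adjusted p = 2.56e-07, edgeR). The start of FKBP10 lies 76 bases from that of P3H4 on the opposite strand, and P3H4 had 51.3 ± 2.18 CPM in siERRα, 70.8 ± 2.24 in imatinib and 53.7 ± 5.40 in siNC. FKBP14 (FKBP22), an isomerase that binds collagen III among others, had 55.1, 71.2 and 54.4 CPM in siERRα libraries, 37.2, 41.3 and 40.4 CPM in imatinib libraries, and 52.3, 46.0 and 48.6 CPM in siNC libraries. It rose in siERRα by 0.30 (adjusted p = 0.0184, edgeR) and fell with imatinib by 0.31 (adjusted p = 0.0105, edgeR). S5 was the high library here, and without it the siERRα value was 0.16 (adjusted p = 0.101, edgeR). That call was also lost without S2 or S3 (adjusted p = 0.0759 and 0.0685, edgeR), and the imatinib call without S1 (adjusted p = 0.0521, edgeR). The ratio of FKBP14 to FKBP10 was 0.242 ± 0.0423 in siERRα, 0.104 ± 0.0100 in imatinib and 0.192 ± 0.0262 in siNC.

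None of the 5 genes of the ion transporters and export factors was called in siERRα against siNC by edgeR, DESeq2 or limma-voom, and none had an unadjusted p under 0.05 by edgeR. The shares of all genes tested that edgeR called were 12.6% lower and 11.4% higher. SLC39A13 (ZIP13), a zinc transporter of the secretory pathway, had 68.0, 55.8 and 64.8 CPM in siERRα libraries, 93.1, 92.9 and 109 CPM in imatinib libraries, and 62.8, 69.5 and 63.5 CPM in siNC libraries. Imatinib stood above both others, and the rise was 0.59 (SE 0.0785, adjusted p = 6.50e-06, edgeR). TMEM38B (TRIC-B), a potassium channel of the endoplasmic reticulum, fell with imatinib by 0.18 (adjusted p = 0.0416, edgeR), a call that was lost without S1, S3, S16 or S18 (adjusted p = 0.0581 to 0.176, edgeR), with no filter on low counts (adjusted p = 0.063, edgeR) and with the replicate block (adjusted p = 0.0701, edgeR). MIA3 (TANGO1) and MIA2 (cTAGE5) load large procollagens into transport carriers. MIA3 stood at 124 ± 13.3 CPM in siERRα, 112 ± 12.1 in imatinib and 111 ± 7.73 in siNC (SD, n = 3 each) and was called against siNC in neither treatment. MIA2 fell with imatinib by 0.22 (adjusted p = 0.0362, edgeR), again not without S1, S3 or S18 (adjusted p = 0.0812, 0.120 and 0.108, edgeR). SEC23A, a subunit of the coat of these carriers, stood at 172 ± 14.9 CPM in siERRα, 193 ± 11.2 in imatinib and 173 ± 7.88 in siNC (SD, n = 3 each). It was not called against siNC in either treatment. With imatinib it was called when S5 or S16 was left out and with the 6 libraries compared alone (adjusted p = 0.0203, 0.0425 and 0.0351, edgeR).

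The proteases that remove the N-propeptide differed most from each other. ADAMTS3, on chromosome 4 (72280969 to 72569221, minus strand), cuts procollagen and also activates the growth factor VEGF-C. It had 2.05, 2.06 and 2.21 CPM in siERRα libraries, 4.61, 4.02 and 4.67 CPM in imatinib libraries, and 6.29, 5.62 and 5.99 CPM in siNC libraries, at 86 to 302 counts a library. The 3 groups did not overlap, with siERRα at the bottom. The log2 fold change was −1.50 (SE 0.123, adjusted p = 4.73e-08, edgeR) in siERRα and −0.43 (SE 0.115, adjusted p = 0.00543, edgeR) with imatinib, and the difference between the treatments was −1.07 (adjusted p = 9.65e-07, edgeR). Its paralog ADAMTS14, on chromosome 10 (70672506 to 70762441, plus strand), showed another order. It had 2.89, 2.71 and 2.78 CPM in siERRα libraries, 0.651, 0.701 and 1.37 CPM in imatinib libraries, and 1.86, 1.96 and 2.10 CPM in siNC libraries. Here siERRα was highest and imatinib lowest, again without overlap. The imatinib libraries S16, S17 and S18 held only 24, 26 and 50 counts of ADAMTS14. Over the fits without 1 library, its log2 fold change with imatinib ran from −1.55 to −0.94. The fall with imatinib was 1.12 on the log2 scale (adjusted p = 0.000489, edgeR), and siERRα against siNC had 0.50 and missed the threshold (adjusted p = 0.063, edgeR), although limma-voom called it (adjusted p = 0.041) and edgeR did without S18, with no filter on low counts and with the 6 libraries compared alone (adjusted p = 0.0232, 0.0457 and 0.0223). The third of them, ADAMTS2, the main N-proteinase of skin collagen, had 0.335, 0.189 and 0.618 CPM in siERRα libraries, 1.82, 1.72 and 1.67 CPM in imatinib libraries, and 0.559, 0.713 and 0.437 CPM in siNC libraries. It rose with imatinib by 1.62 (SE 0.288, adjusted p = 0.000158, edgeR) and had −0.60 in siERRα (adjusted p = 0.235, edgeR). Without S6, its highest siERRα library, that value was −1.10 (adjusted p = 0.0382, edgeR), and without S5, its lowest, −0.27 (adjusted p = 0.618, edgeR). The ratio of ADAMTS14 to ADAMTS3 was 1.33 ± 0.0767 in siERRα, 0.203 ± 0.0795 in imatinib and 0.332 ± 0.0314 in siNC (SD, n = 3 each).

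The C-propeptide is cut by BMP1 and its relatives TLL1 and TLL2, with PCOLCE and PCOLCE2 as enhancers. BMP1, which also activates pro-LOX, had 17.99, 15.5 and 17.4 CPM in siERRα libraries, 34.4, 28.3 and 29.0 CPM in imatinib libraries, and 17.99, 20.5 and 19.7 CPM in siNC libraries. It rose with imatinib by 0.66 (SE 0.0868, adjusted p = 5.99e-06, edgeR) and had −0.19 in siERRα (adjusted p = 0.13, edgeR). TLL1 rose with imatinib too, by 1.15 (adjusted p = 0.00155, edgeR), at 12 to 59 counts a library, while TLL2, with 17 to 52 counts, fell by 0.83 (adjusted p = 0.0188, edgeR). The TLL2 call was lost without S1 or S18 (adjusted p = 0.0673 and 0.0849, edgeR). PCOLCE had 16.3, 14.6 and 14.8 CPM in siERRα libraries, 23.0, 22.1 and 23.4 CPM in imatinib libraries, and 18.3, 22.5 and 19.9 CPM in siNC libraries. The siERRα libraries lay below all others, with a log2 fold change against siNC of −0.41 (SE 0.0833, adjusted p = 0.00138, edgeR). PCOLCE shares 16.8% of its exonic bases with PCOLCE-AS1 on the opposite strand, and its level is uncertain by that part. PCOLCE2, the more abundant enhancer, stood at 278 ± 18.7 CPM in siERRα, 330 ± 10.5 in imatinib and 296 ± 8.23 in siNC (SD, n = 3 each). Its rise with imatinib was 0.16 (adjusted p = 0.0333, edgeR) and was lost without S1, S3 or S17 (adjusted p = 0.141, 0.0633 and 0.101, edgeR) and with no filter on low counts (adjusted p = 0.0695, edgeR).

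Of the 5 lysyl oxidases, LOXL1, LOXL2, LOXL3 and LOXL4 fell in siERRα and rose with imatinib, both measured against the same siNC libraries. By edgeR, 12.6% of all genes tested were lower in siERRα and 21.4% higher with imatinib. In siERRα against imatinib directly, the 4 LOXL genes, in the order named, had log2 fold changes of −1.49, −0.74, −0.71 and −2.25 (adjusted p at most 1.10e-06, edgeR). LOXL4, on chromosome 10 (98247690 to 98268194, minus strand), had 16.5, 16.4 and 15.4 CPM in siERRα libraries, 84.1, 76.5 and 69.8 CPM in imatinib libraries, and 20.6, 20.6 and 22.3 CPM in siNC libraries. Imatinib libraries were more than 3 times the siNC level and siERRα libraries below it, without overlap. The log2 fold change was −0.39 (SE 0.0778, adjusted p = 0.000987, edgeR) in siERRα and 1.86 (SE 0.0752, adjusted p = 1.53e-12, edgeR) with imatinib. LOXL1, which crosslinks elastin as well as collagen, lies on chromosome 15 (73925989 to 73952137, plus strand). Its values were 18.9, 15.4 and 19.6 CPM in siERRα libraries, 51.4, 49.3 and 50.9 CPM in imatinib libraries, and 23.7, 26.9 and 23.8 CPM in siNC libraries. It fell in siERRα by 0.46 (adjusted p = 0.000494, edgeR) and rose with imatinib by 1.03 (adjusted p = 1.23e-08, edgeR), with no overlap of the groups.

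LOXL2, which acts on collagen IV of basement membranes, had 12.03, 11.2 and 10.7 CPM in siERRα libraries, 21.2, 18.7 and 16.9 CPM in imatinib libraries, and 13.8, 13.5 and 14.3 CPM in siNC libraries. The groups did not overlap. Its fall in siERRα was 0.29 (adjusted p = 0.0231, edgeR) and was lost without S6, S1 or S3 (adjusted p = 0.0808, 0.0564 and 0.082, edgeR), and its rise with imatinib was 0.45 (adjusted p = 0.000416, edgeR). LOXL3 had 9.45, 9.85 and 10.3 CPM in siERRα libraries, 16.5, 16.6 and 15.4 CPM in imatinib libraries, and 11.7, 12.6 and 12.6 CPM in siNC libraries, with changes of −0.32 in siERRα and 0.39 with imatinib (adjusted p = 0.00674 and 0.000595, edgeR). LOX, the founding member of the family, differed from its 4 relatives. At 15 to 33 counts a library it stood at 0.457 ± 0.0695 CPM in siERRα, 0.506 ± 0.107 in imatinib and 0.710 ± 0.0480 in siNC (SD, n = 3 each), lower than siNC in all 6 treated libraries but called in neither comparison (adjusted p = 0.116 and 0.19, edgeR). LOXL3 shares 20.7% of its exonic bases with HTRA2 and LOXL1 9.21% with LOXL1-AS1, both on the opposite strand, and these levels are uncertain by that part. Summed over the 5 genes, lysyl oxidase transcripts came to 55.8 ± 2.05 CPM in siERRα, 163 ± 10.1 in imatinib and 72.9 ± 2.01 in siNC (SD, n = 3 each).

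**Figure D3:**
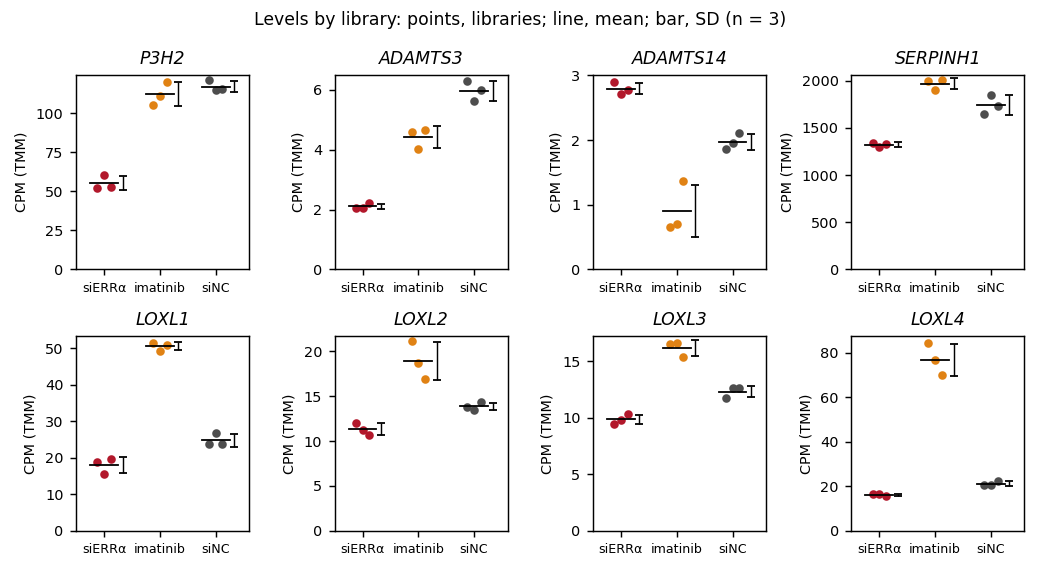
Levels of P3H2, ADAMTS3, ADAMTS14, SERPINH1, LOXL1, LOXL2, LOXL3 and LOXL4 in CPM, with 1 point per library, a line for the mean and a bar for the SD over the 3 libraries of the siERRα, imatinib and siNC groups. The siERRα points of P3H2 lie between 52.3 and 60.7 CPM, under all others, and the imatinib points of LOXL4 between 69.8 and 84.1 CPM, above all others.

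The collagen chains, the substrates of these enzymes, were set beside them. Of 44 chain genes 33 were tested. In siERRα against siNC 3 (9.09%) were lower and 2 (6.06%) higher by edgeR, against 12.6% and 11.4% of all genes. The median log2 fold change of the chains was −0.088. With imatinib 23 (69.7%) were higher and 1 (3.03%) lower, against 21.4% and 20.3% of all genes, with a median of 1.11 over the chains. Among chains that averaged at least 1 CPM over the libraries, COL23A1, a transmembrane collagen, rose most with imatinib (2.696), then COL14A1, which coats fibrils (2.32), and COL4A4 of basement membranes (1.77), while COL9A1 fell by 0.52. In siERRα, COL27A1 (0.43) and COL1A1 (0.39) were higher, and COL17A1 (−0.80), COL15A1 (−0.50) and COL12A1 (−0.34) lower. Leaving out 1 library ended the call of COL1A1 (S4 or S3), of COL17A1 (S4, S2 or S3) and of COL12A1 (S4, S5, S6, S1 or S3), with adjusted p between 0.0541 and 0.132 by edgeR, and COL17A1 was not called with no filter on low counts (adjusted p = 0.052, edgeR). The most abundant chain was COL3A1, named after its values were seen, with 3208, 3417 and 3158 CPM in siERRα libraries, 10149, 9196 and 8235 CPM in imatinib libraries, and 3223, 3177 and 3429 CPM in siNC libraries. The ratio of COL3A1 to SERPINH1 in CPM came to 2.47 ± 0.148 in siERRα, 4.67 ± 0.514 in imatinib and 1.89 ± 0.146 in siNC (SD, n = 3 each). It was not divided by transcript length and is not a ratio of transcript numbers. In siERRα the denominator was lower and COL3A1 overlapped with siNC, and with imatinib both were higher. Summed over all chains, the level was 4582 to 4971 CPM in siERRα, 11638 to 14881 in imatinib and 4778 to 5189 in siNC. The 36 enzyme genes summed to 5916 to 6191 CPM in siERRα, 8104 to 8429 in imatinib and 6316 to 6760 in siNC, with no overlap between groups. Such sums follow the most abundant genes. Mean sums were 6023 CPM in siERRα and 6567 CPM in siNC, and SERPINH1 alone had means of 1321 and 1743 CPM. Of the 36 genes, 9 were called lower in siERRα and 2 higher. In imatinib the fibroblast marker sum and the mitochondrial share given above were higher and the epithelial marker sum, nearly all from KRT18, lower. Only 3 epithelial markers were tested, of which 2 were lower and 1 higher with imatinib by edgeR, against 20.3% and 21.4% of all genes. What part the marker sums and the mitochondrial share have in these values was not tested.

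**Figure D4:**
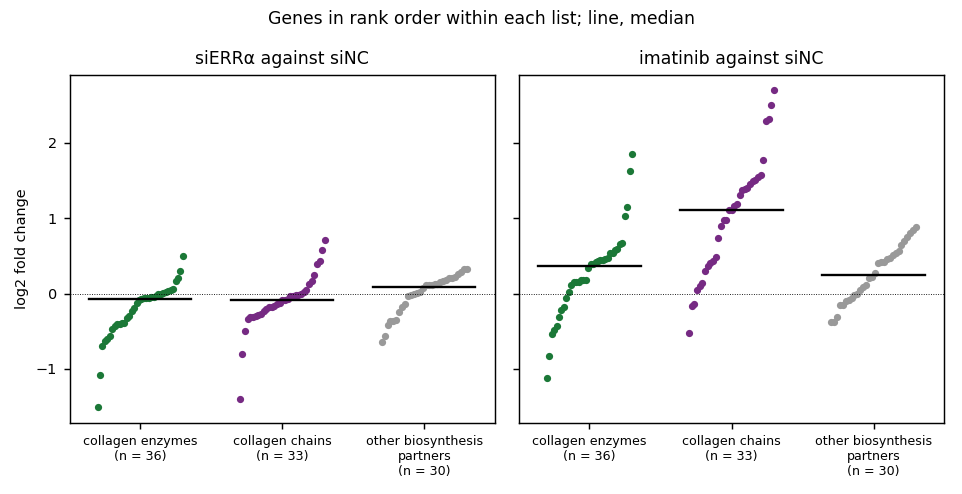
Log2 fold changes in siERRα against siNC (left panel) and imatinib against siNC (right panel) of the 36 collagen enzymes, the 33 tested collagen chains and the 30 tested partner genes, each gene a point in rank order within its list and each line a median. In the left panel the enzyme and chain medians are −0.078 and −0.088, and in the right panel 0.36 and 1.11.

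A further 33 genes of collagen biosynthesis (general chaperones, cofactor transport, transport regulators and small matrix proteins) had 30 tested. In siERRα 7 (23.3%) were lower and 10 (33.3%) higher by edgeR, against 12.6% and 11.4% of all genes. HSPA5 (BiP), the chaperone of the endoplasmic reticulum that binds unfolded chains, fell by 0.65 on the log2 scale (adjusted p = 5.01e-08, edgeR), with 1078 ± 62.2 CPM in siERRα, against 1690 ± 48.3 in siNC (SD, n = 3 each). PPIC, a cyclophilin close to PPIB, fell by 0.56, MBTPS2 by 0.42 and ERO1A by 0.37, while ATP7A, which supplies copper to lysyl oxidases, rose by 0.33, SLC23A2, a transporter of the hydroxylase cofactor ascorbate, by 0.32, FKBP7 by 0.29 and CANX by 0.26. With imatinib 17 (56.7%) were higher and 3 (10%) lower, against 21.4% and 20.3% of all genes. The rises were led by PXDN (0.89), TGM2 (0.84), DCN (0.80) and FKBP9 (0.74), with SLC23A2 (−0.38), CREB3L1 (−0.37) and CUL3 (−0.30) lower. PLOD2, P4HA1, P4HA2 and LOX are known targets of the hypoxia response, so 17 other genes of that response were set beside them, of which 16 were tested. In siERRα 2 were higher and 2 lower (12.5% each), against 11.4% and 12.6% of all genes. With imatinib 4 were higher (25%) and 7 lower (43.8%), against 21.4% and 20.3% of all genes. The 4 that rose were PFKFB4 (0.63), BNIP3L (0.52), NDRG1 (0.24) and EGLN3 (0.22, a call lost without S3 or S18). Those that fell most were VEGFA (−1.21), ADM (−0.54), SLC2A1 (−0.38) and PFKFB3 (−0.30). P4HA2 and PLOD2 rose with imatinib, P4HA1 was not called and LOX had −0.48 without a call. The part of the hypoxia response in these values was not tested.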

How the data were processed

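The deposited table holds raw counts that the authors made from paired reads (STAR 2.7.3a on GRCh38, then featureCounts 2.0.1, per the submitters' notes), as whole numbers for 61209 symbols with no normalization. The annotation release and strand setting are not stated. A second deposited file with the group assignments has no values to analyse and was left out.

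Groups came from the labels, joined to the columns by S number. TMM scaling and filterByExpr (minimum count 10, total 15) left 16976 genes. Tests were robust quasi-likelihood F-tests (edgeR 4.0.16, R 4.3.3) from 1 fit of 9 libraries, adjusted by Benjamini-Hochberg over all genes left, and a gene is called at an adjusted p under 0.05. Standard errors were derived from each fold change and its F. This procedure was tested on simulated data. Transcript lengths, 3' UTRs and positions came from GENCODE 44 (60473 symbols matched) and promoters from RefSeq. Named genes were all 36 of the list, ESRRA and, in each pathway list, up to 4 called genes a direction with the largest fold change and an average of at least 1 CPM. The members and lists were chosen with earlier results of these data known. Alternatives were DESeq2 1.42.0 (its size factors, or its Wald test), limma-voom (limma 3.58.1), no filter, 10 counts in every library, 6 libraries only, a block of the library numbers, a fold threshold and each library omitted in turn. Tables and figures were made in Python 3.11.15 (pandas 2.3.3, matplotlib 3.10.9).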

Additional observations from a re-analysis of the deposited data

How the results depend on the processing

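With a fold threshold of 0.5 on the log2 scale (absolute value) added, 2 genes of the list were lower and 0 higher in siERRα against siNC, 2 lower and 10 higher with imatinib, and 17 lower and 2 higher in siERRα against imatinib. In the same order, the shares of all genes tested were 5.28% and 1.98%, 7.02% and 10.6%, and 15.7% and 10.6%. By edgeR without the fold threshold, 3 genes were higher in siERRα at an unadjusted p under 0.05, and DESeq2 called 2 and limma-voom 3. Leaving out each library in turn gave 8 to 9 lower and 0 to 3 higher in siERRα, 2 to 6 lower and 19 to 24 higher with imatinib, and 24 to 26 lower and 3 to 4 higher in siERRα against imatinib. Over the same fits, the genes called in the whole table numbered 2910 to 4401, 5794 to 7780 and 8203 to 8934 in these comparisons. Apart from leaving out libraries and the fold threshold, direction and side of the threshold were kept in 246 of 251 log2 fold changes of the list in siERRα against siNC, 245 of 251 with imatinib and 251 of 251 in siERRα against imatinib. Signs changed for values near 0, and the cause was not tested. P4HA1 in siERRα had −0.0091 with at least 10 counts in every library and −0.0076 with the 6 libraries compared. Over the fits without 1 library, log2 fold changes in siERRα ran from −0.045 to 0.018 for CRTAP, −0.087 to 0.060 for P4HA1, −0.068 to 0.072 for PLOD2, −0.11 to 0.025 for SLC39A13, −0.058 to 0.11 for MIA2 and −0.089 to 0.021 for SEC23A. They ran from −0.071 to 0.081 for MIA3 with imatinib, and in siERRα against imatinib from −0.015 to 0.12 for PPIB, −0.24 to 0.24 for P4HA3 and −0.29 to 0.014 for LOX. The replicate block, with numbers 1 to 3 of the column names, gave 3652, 6764 and 8612 called genes in siERRα against siNC, imatinib against siNC and siERRα against imatinib, and 5 in place of 6 genes of the list lower with imatinib (TMEM38B was lost). Correlations of deviations between libraries of the same number ran from −0.10 to 0.15, and between libraries of different numbers from −0.13 to 0.093. Libraries were not treated as pairs, although with 3 libraries a group these correlations cannot exclude pairing. In siERRα against imatinib, leaving out 1 library ended the calls of TMEM38B (S4 or S16), MIA2 (S5, 0.16 in place of 0.27) and SEC23A (S4, S6 or S17) and added those of COLGALT1 (S17) and MIA3 (S16). Genes below 1 CPM are limited by counting error.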
